A study of Canis lupus familiaris with 11 samples.

Results

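The genes described are 10 members of the cell death machinery, taken from a table of 26178 genes measured by RNA sequencing in 11 libraries of MDCKII cells, an epithelial line from dog kidney that grows as a tight sheet in culture. They were chosen by name: MCL1, BCL2L1, BAX, BAK1, BCL2L11, BBC3, PMAIP1, BID, BIRC3 and DFNA5. A row counted as a member where its gene name, or the protein matched to it when the row had no usable name, was one of these. All 10 were found, 6 through the gene name and 4 (BCL2L1, BBC3, PMAIP1 and BIRC3) through the protein match, which is less certain. A further row matching BID is annotated as a pseudogene, held 3 reads over all libraries and was not used.

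The series asks how an epithelium responds to lateral compression and what lamin A, a filament protein of the nuclear envelope encoded by LMNA, does in that response. There were 3 libraries of LMNA knockout (KO) cells compressed laterally and left to recover for 2 h, 2 of KO control cells, 3 of wild-type (WT) cells compressed and recovered in the same way, and 3 of WT control cells. All cells were grown for 3 to 4 d, and the controls were not compressed. The labels do not say how compression was applied, whether controls were handled in parallel, or whether the KO line is 1 clone, so compression cannot be told apart from handling or from the 2 h of extra time. Nor do they state that replicates are separate cultures, and p-values then measure only a spread between samples that could be technical.

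As background, the BCL2 family decides whether the outer mitochondrial membrane stays intact. Pro-survival members such as MCL1 and BCL-XL (BCL2L1) hold back the pore-forming effectors BAX and BAK, and BH3-only proteins (BID, BIM, PUMA and NOXA, encoded by BID, BCL2L11, BBC3 and PMAIP1) release that brake or activate the effectors directly. Once the membrane opens, released cytochrome c lets caspases be activated, inhibitor of apoptosis (IAP) proteins such as cIAP2 (BIRC3) dampen cell death signalling, and gasdermin E (DFNA5, also called GSDME) can be cut by a caspase into a form that perforates the plasma membrane. Much of this control acts on proteins, so RNA levels describe only the supply of the parts.

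Libraries held 10420214 to 17999623 counts, of which the 10 genes took 0.0451% to 0.0597%. LMNA stood at 25.5 to 51.8 CPM in the 5 KO libraries and at 679 to 1210 CPM in the 6 WT libraries. CPM are read counts relative to the library total, here scaled for library composition by the trimmed mean of M-values (TMM). The summed level of 8 epithelial markers was 3570 to 5960 CPM, and PTPRC, CD3E, DCN and LUM, markers of immune cells and fibroblasts, were at 0 in every library. The summed level of 7 immune markers was 5.15 to 8.64 CPM in WT compressed and 8.49 to 11 CPM in WT control libraries, and its part in the results was not tested. On the first principal component, which held 38.4% of the variance, WT compressed replicate 3 and KO compressed replicate 2 stood apart from the other libraries of their groups. WT control replicate 1 differed most from the others of its group, with a chi-square per gene of 72.1 and 45.1 against them, while those differed from each other by 14.3. In bulk RNA, fewer cells expressing a gene and less RNA per cell cannot be told apart.

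Per length, the 10 genes spanned a wide range of levels. In WT control cells the mean FPKM, the deposited value per gene length and library size, was 66 ± 18 for BAK1, 39.4 ± 3.83 for BID, 39.1 ± 5.85 for BAX and 35.1 ± 1.9 for MCL1 (SD, n = 3 each). PMAIP1 had 33.8 ± 9.96 FPKM, which rests on a listed length of only 168 bases and on few reads, and BCL2L1 had 26.2 ± 2.95 FPKM. The ranges of BID, BAX, MCL1 and PMAIP1 overlapped, as did those of PMAIP1 and BCL2L1, while BAK1 lay above all of them. Below them came BCL2L11 at 5.73 ± 1.33, BIRC3 at 3.06 ± 0.44, BBC3 at 2.09 ± 0.677 and DFNA5 at 0.709 ± 0.172 FPKM. The ranges of BIRC3 and BBC3 overlapped, and the other neighbours among these were apart. This order depends on the listed lengths, such as 724 bases for BAX, 1224 for BCL2L1, 5043 for MCL1 and 5552 for BCL2L11. In CPM the WT control means were 178 for MCL1, 91.3 for BAK1, 82.8 for BID and 28.5 for BAX.

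**Figure D1:**
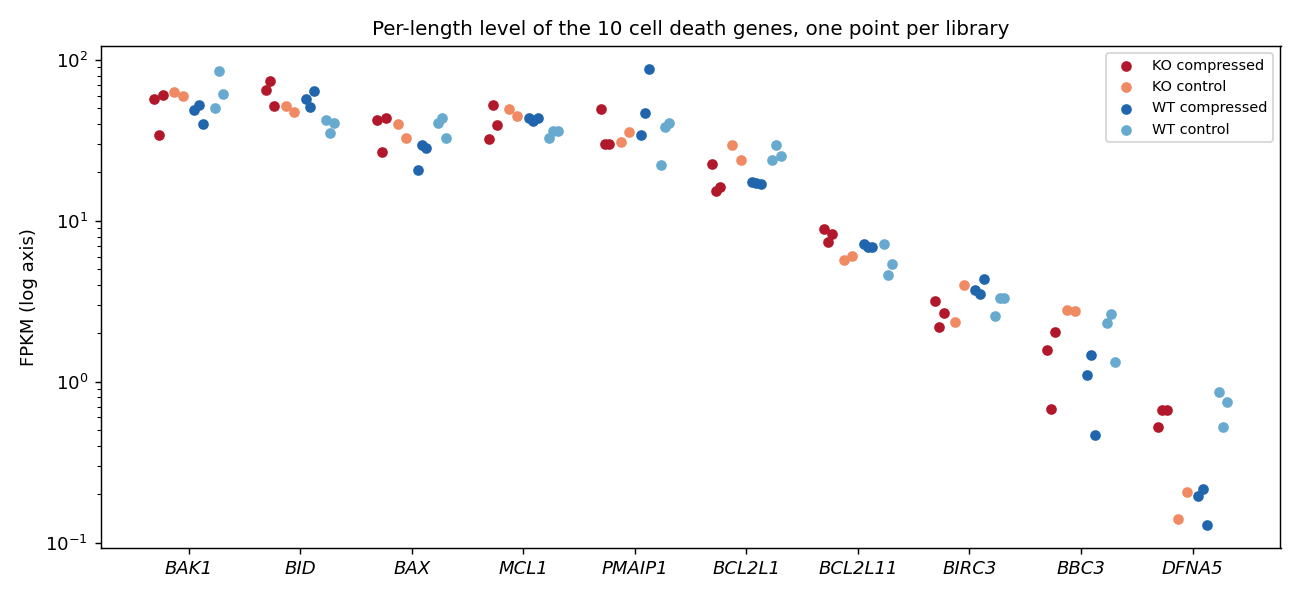
FPKM (log axis) of the 10 cell death genes, ordered by their mean in WT control cells, with 1 point per library coloured by group. BAK1 leads in WT control cells at a mean of 66 FPKM and DFNA5 is lowest at 0.709 FPKM, and for DFNA5 the KO control and WT compressed libraries lie below the KO compressed and WT control libraries.

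None of the 10 genes passed an adjusted p of 0.05 for compression in WT cells or in KO cells, for KO against WT with or without compression, or for the interaction of both factors (edgeR quasi-likelihood test, Benjamini-Hochberg adjustment over 13560 genes). In the same fit, 6.25% of all genes passed for compression in WT cells, 0% for compression in KO cells, 0.339% for KO against WT controls, 0.789% for KO against WT compressed cells and 0% for the interaction. At an unadjusted p under 0.05 there were 5 of the 10 genes for compression in WT cells, where 31.8% of all genes stood, and 3 in KO cells, where 6.11% stood. There were 2 for KO against WT in compressed cells, 2 in control cells and 1 for the interaction, where 11.3%, 7.79% and 4.79% of all genes stood. DFNA5 is in each of these counts and is the only gene in that of the interaction. It passed the low count filter through the KO compressed and WT control libraries alone, so it had to differ between groups. It therefore adds no support to these counts or to the DESeq2 calls that follow. DESeq2 called 3 of the 10 in WT cells, with BCL2L1 and DFNA5 lower and BID higher, where it called 18.4% of all genes. It called 0 of the 10 in the other 4 comparisons, where it called 0.00737% of all genes for compression in KO cells, 2.73% and 0.937% for KO against WT in compressed and control cells, and 0% for the interaction. When the compression effect was averaged over both genotypes, a contrast added after the values were seen, BCL2L1 fell and BID rose with adjusted p-values of 0.0444 and 0.0481 by edgeR. Among all genes 2.24% were called lower and 3.33% higher in that contrast, 5.58% in all. Without the 2 libraries that stood apart, 0 of the 10 genes were called in it, with log2 fold changes of -0.51 ± 0.15 for BCL2L1 and 0.37 ± 0.12 for BID (adjusted p 0.0928 and 0.117, edgeR), where 12 of 13479 genes were called. Without WT control replicate 1 as well, 3 of the 10 were called, BCL2L1 lower and BCL2L11 and BID higher (adjusted p 0.0101 to 0.0247, edgeR), where 2471 of 13469 genes were called. These 3 libraries were picked because they differed from others of their groups, which can lower the spread. The calls made without them therefore give no added support.

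**Figure D2:**
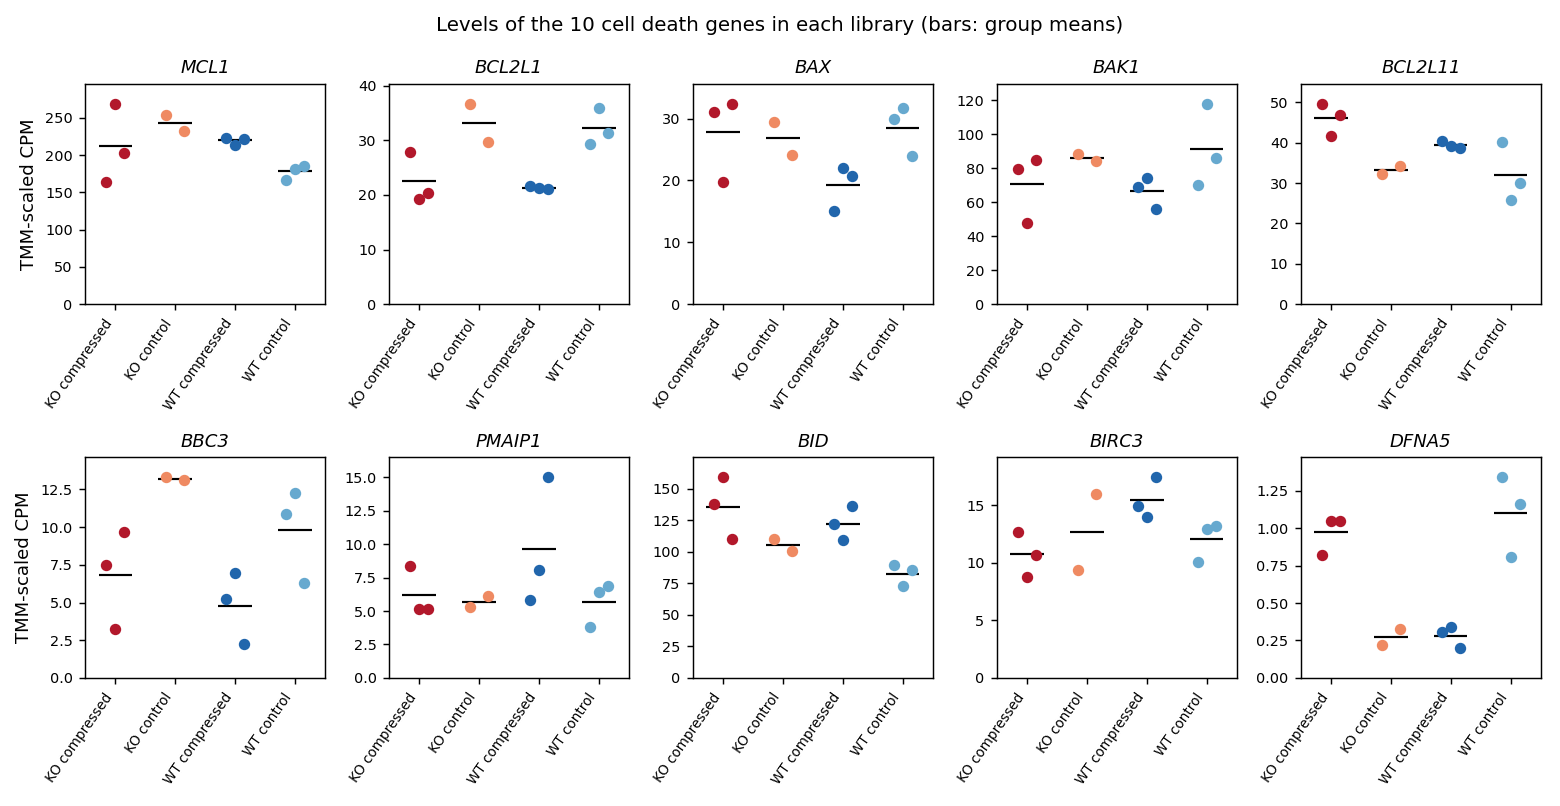
TMM-scaled CPM of each gene (linear axes from 0), with 1 point per library and a bar at each group mean, in the order KO compressed, KO control, WT compressed, WT control. BCL2L1 is lower and BID higher in compressed than in control libraries of both genotypes, and DFNA5 is high in KO compressed and WT control libraries alone.

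Among the pro-survival genes, BCL2L1 was lower after compression in both genotypes. BCL2L1 (chromosome 24, 21145209 to 21196349, minus strand, CanFam3.1) encodes BCL-XL, which binds and restrains BAX, BAK and BH3-only proteins. It stood at 27.8, 19.3 and 20.3 CPM in KO compressed cells, against 36.7 and 29.7 CPM in KO control cells. The WT values were 21.7, 21.3 and 21.0 CPM in WT compressed cells, against 29.3, 36.0 and 31.3 CPM in WT control cells. In each genotype every compressed library lay below every control library, as for 6.1% of all genes. Compressed against control cells gave a log2 fold change of -0.56 ± 0.21 (SE) in KO cells (adjusted p 0.773, edgeR) and -0.59 ± 0.19 in WT cells (adjusted p 0.0698, edgeR), and their average was -0.58 ± 0.14. The averaged call was kept without WT control replicate 1, KO compressed replicate 1 or KO compressed replicate 3 and lost without any of the other 8 libraries, where the adjusted p by edgeR was 0.0507 to 0.188 and the log2 fold change -0.65 to -0.50. For KO against WT cells the log2 fold changes were 0.07 ± 0.19 in compressed and 0.04 ± 0.21 in control cells.

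MCL1 did not share this pattern. MCL1 (chromosome 17, 59736611 to 59763111, minus strand) encodes a short-lived pro-survival protein that binds BAK and BH3-only proteins. Its level was 164, 269 and 203 CPM in KO compressed cells, against 254 and 232 CPM in KO control cells. In WT compressed cells it was 223, 214 and 222 CPM, against 167, 182 and 185 CPM in WT control cells. All 3 WT compressed libraries lay above all 3 WT control libraries, while the KO compressed libraries lay on both sides of the KO controls. The WT groups did not overlap, in either direction, for 42% of all genes. In the fit, the log2 fold change for compression was -0.19 ± 0.18 in KO cells and 0.30 ± 0.17 in WT cells (adjusted p 0.822 and 0.225, edgeR). The KO value was -0.04 without KO compressed replicate 1 and -0.40 without KO compressed replicate 2. The difference between the genotypes was -0.50 ± 0.25 (adjusted p 0.939, edgeR). Without compression, MCL1 was above every WT control library in both KO control libraries, with a log2 fold change of 0.45 ± 0.18 (adjusted p 0.584, edgeR). The 2 control groups did not overlap, in either direction, for 31.9% of all genes. MCL1 overlaps ADAMTSL4 on the opposite strand over 10370 bases, and the sources used here do not say whether strand was used in counting. ADAMTSL4 held 217 reads over all libraries, against 32909 for MCL1.

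The FPKM ratio of MCL1 to BCL2L1 was 1.43, 3.40 and 2.42 in KO compressed cells, against 1.68 and 1.89 in KO control cells. It was 2.49, 2.43 and 2.57 in WT compressed cells, against 1.38, 1.23 and 1.43 in WT control cells. The WT groups did not overlap and the KO groups did. The size of the ratio depends on the listed gene lengths. The ratio was chosen after the values were seen, and no test was run on it.

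The effectors BAX and BAK1 encode the proteins that form pores in the outer mitochondrial membrane. BAX (chromosome 1, 107423220 to 107426410, minus strand) stood at 31.1, 19.8 and 32.4 CPM in KO compressed cells, against 29.5 and 24.1 CPM in KO control cells. WT libraries gave 15.1, 22 and 20.7 CPM in WT compressed cells, against 29.9, 31.7 and 23.9 CPM in WT control cells. The 3 WT compressed libraries lay below all WT controls, and the KO libraries overlapped. The WT groups did not overlap, in either direction, for 42% of all genes. The log2 fold change was 0.05 ± 0.26 in KO cells (-0.02 when scaled by library size alone) and -0.56 ± 0.23 in WT cells (adjusted p 0.968 and 0.12, edgeR). After compression BAX differed between KO and WT cells by a log2 fold change of 0.53 ± 0.23 (adjusted p 0.407, edgeR), and the interaction was 0.62 ± 0.35 (adjusted p 0.939, edgeR). KO compressed replicate 2, at 19.8 CPM, lay within the range of the WT compressed libraries.

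BAK1 (chromosome 12, 2949753 to 2954835, minus strand) varied widely between replicates. It stood at 79.6, 47.9 and 84.7 CPM in KO compressed cells, against 88.2 and 84.3 CPM in KO control cells. In WT cells the values were 69.0, 74.2 and 56.0 CPM in WT compressed cells, against 70.0, 118 and 86.1 CPM in WT control cells. Compressed and control libraries overlapped in both genotypes, and the lowest compressed library of each genotype was the one that stood apart on the first principal component. Compressed against control cells gave a log2 fold change of -0.28 ± 0.26 in KO cells and -0.46 ± 0.23 in WT cells (adjusted p 0.816 and 0.189, edgeR). The part of those 2 libraries in the BAK1 values was not tested beyond leaving them out, which gave -0.05 in KO cells and -0.35 in WT cells. Without WT control replicate 1 as well, the values were -0.07 in KO cells and -0.51 ± 0.16 in WT cells. BAK1 was called lower in WT cells in that setting (adjusted p 0.0289, edgeR), where 26% of all genes were called.

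Of the 4 BH3-only genes, BID alone was called in the averaged contrast by the main edgeR fit. BBC3 and BCL2L11 were called in it only in some other settings. BID (chromosome 27, 45344304 to 45384050, minus strand), whose protein is cut by caspase-8 and links death receptors to mitochondria, was the most abundant of the 4 by FPKM in WT control cells. It stood at 138, 159 and 110 CPM in KO compressed cells, against 110 and 101 CPM in KO control cells. The WT values were 122, 109 and 136 CPM in WT compressed cells, against 89.4, 73.2 and 85.7 CPM in WT control cells. Every compressed library lay above every control library of its genotype in CPM, as for 6.07% of all genes. The closest pair, both at 110 CPM in KO cells, was reversed in FPKM, at 51.7 in KO compressed replicate 3 and 51.8 in KO control replicate 1. In the fit, the log2 fold change for compression was 0.36 ± 0.18 in KO cells (adjusted p 0.773, edgeR) and 0.56 ± 0.16 in WT cells (adjusted p 0.0547, edgeR), and their average was 0.46 ± 0.12. The averaged call was kept without WT control replicate 1, WT compressed replicate 2 or KO compressed replicate 3 and lost without any of the other 8 libraries, where the adjusted p by edgeR was 0.0556 to 0.193 and the log2 fold change 0.40 to 0.49. It was also lost with other scaling, at an adjusted p of 0.0502 (RLE) and 0.0599 (library size alone) by edgeR, and with limma on FPKM at 0.0615 and 0.0663. BID was also above every WT control library in both KO control libraries (log2 fold change 0.35 ± 0.18, adjusted p 0.703, edgeR). The 2 control groups did not overlap, in either direction, for 31.9% of all genes.

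BCL2L11 (chromosome 17, 35622730 to 35668205, plus strand) encodes BIM, an activator BH3-only protein. It stood at 49.7, 41.8 and 46.9 CPM in KO compressed cells, against 32.3 and 34.2 CPM in KO control cells. WT libraries gave 40.4, 39.1 and 38.6 CPM in WT compressed cells, against 40.3, 25.7 and 30.1 CPM in WT control cells. The KO groups did not overlap, as for 27.6% of all genes in either direction. WT control replicate 1 lay among the WT compressed libraries. The log2 fold change was 0.47 ± 0.21 in KO cells and 0.30 ± 0.18 in WT cells (adjusted p 0.773 and 0.277, edgeR), and the average was 0.38 ± 0.14 (adjusted p 0.0895, edgeR). In WT cells it was 0.50 without WT control replicate 1 and 0.16 without WT control replicate 2. The average was called in 3 of 21 other settings. DESeq2, which called 17% of all genes in that contrast, was among them (adjusted p 0.045, DESeq2).

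BBC3 (chromosome 1, 108742833 to 108753704, plus strand) encodes PUMA, a BH3-only protein induced by p53. It stood at 7.47, 3.25 and 9.71 CPM in KO compressed cells, against 13.3 and 13.1 CPM in KO control cells. In WT cells the values were 5.23, 6.94 and 2.22 CPM in WT compressed cells, against 10.9, 12.3 and 6.29 CPM in WT control cells. The KO groups did not overlap, as for 27.6% of all genes in either direction, and the WT groups did. The lowest value in each genotype came from the library that stood apart. Compressed against control cells gave a log2 fold change of -0.94 ± 0.46 in KO cells and -1.02 ± 0.43 in WT cells (adjusted p 0.773 and 0.127, edgeR), and the average was -0.98 ± 0.31 (adjusted p 0.0682, edgeR). Without those 2 libraries the values were -0.60 in KO cells and -0.69 in WT cells. The average was called in 3 of 21 other settings. DESeq2, which called 17% of all genes in that contrast, was among them (adjusted p 0.0225, DESeq2). All 10872 bases of BBC3 lie inside the span of ZC3H4 on the same strand, so reads of the 2 genes may not be separated. ZC3H4 had log2 fold changes of -0.33 ± 0.31 in KO cells and -0.68 ± 0.28 in WT cells (adjusted p 0.821 and 0.12, edgeR), and its part in the BBC3 values was not tested.

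PMAIP1 (chromosome 1, 16469793 to 16472910, minus strand) encodes NOXA, a BH3-only protein that binds MCL1. It stood at 8.36, 5.17 and 5.14 CPM in KO compressed cells, against 5.29 and 6.14 CPM in KO control cells. The WT values were 5.84, 8.05 and 15 CPM in WT compressed cells, against 3.78, 6.44 and 6.90 CPM in WT control cells. The groups overlapped in both genotypes, and the highest library of all was WT compressed replicate 3, the WT library that stood apart. In the fit, the log2 fold change for compression was 0.12 ± 0.41 in KO cells and 0.74 ± 0.37 in WT cells (adjusted p 0.95 and 0.18, edgeR). Leaving out WT compressed replicate 3 brought the WT value to 0.28.

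BIRC3 and DFNA5 lie outside the BCL2 family. BIRC3 (chromosome 5, 29323233 to 29337240, minus strand) encodes cIAP2, a ubiquitin ligase of the tumour necrosis factor receptor pathway and a known target of NF-kappaB. It stood at 12.7, 8.77 and 10.7 CPM in KO compressed cells, against 9.36 and 16.0 CPM in KO control cells. WT libraries gave 14.9, 14.0 and 17.4 CPM in WT compressed cells, against 10.1, 12.9 and 13.2 CPM in WT control cells. The WT groups did not overlap, as for 42% of all genes in either direction. The 2 KO control libraries lay far apart, on either side of 2 of the 3 KO compressed values. The log2 fold change was -0.24 ± 0.28 in KO cells and 0.35 ± 0.25 in WT cells (adjusted p 0.838 and 0.339, edgeR), and -0.52 ± 0.25 for KO against WT compressed cells (adjusted p 0.459, edgeR).

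DFNA5 (chromosome 14, 38211540 to 38272077, minus strand) had log2 fold changes of opposite sign for compression in the 2 genotypes. It had 11, 12 and 17 reads in KO compressed cells, against 4 and 6 reads in KO control cells. It had 4, 4 and 2 reads in WT compressed cells, against 17, 12 and 19 reads in WT control cells. Every KO compressed library lay above both KO controls and every WT compressed library below all WT controls, a pattern of lower in WT and higher in KO without overlap that 0.317% of all genes shared. DFNA5 passed the low count filter only through the groups where it was high. The separation came with that entry, so the share gives no support for the pattern. Summed over libraries, the level was 0.95 CPM without scaling (95% exact Poisson interval 0.679 to 1.29) in KO compressed cells, against 0.281 (0.135 to 0.517) in KO control cells. It was 0.285 (0.137 to 0.525) in WT compressed cells, against 1.12 (0.823 to 1.48) in WT control cells. These intervals pool the libraries of each group, cover counting error only and give no support for the pattern either.

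The log2 fold change of DFNA5 was 1.80 ± 0.67 in KO cells (adjusted p 0.773, edgeR) and -1.91 ± 0.61 in WT cells (adjusted p 0.0653, edgeR). The difference between the 2 effects was 3.71 ± 0.90 on the log2 scale, which ranked 2 of 13560 genes by p (unadjusted p 0.00114) and had an adjusted p of 0.939 by edgeR. KO against WT gave 1.74 ± 0.61 in compressed cells and -1.97 ± 0.67 in control cells (adjusted p 0.268 and 0.438, edgeR). The gene passed the low count filter through the KO compressed and WT control libraries alone, where all 6 exceeded 0.722 CPM, and no library of the other groups did. A gene that enters in this way had to differ between groups.

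**Figure D3:**
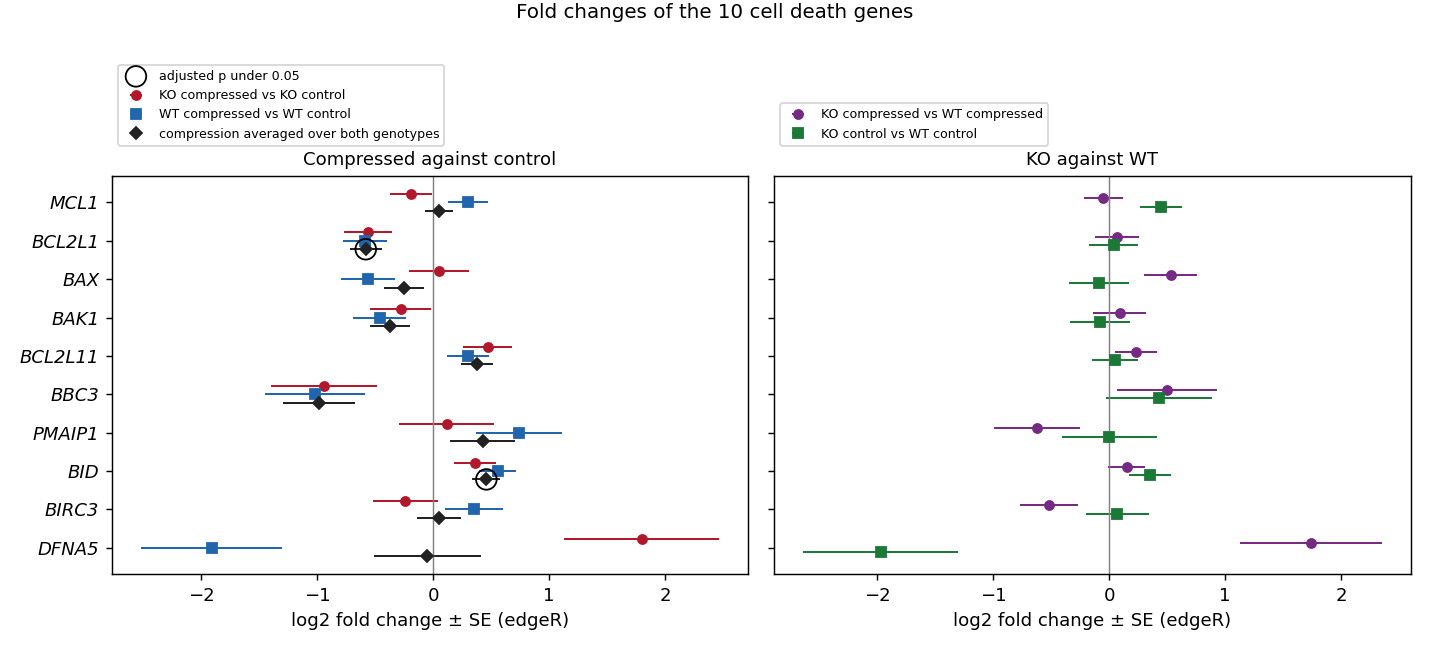
Log2 fold change with its SE (horizontal bars) of the 10 genes from the edgeR fit, on the left for compressed against control cells in KO, in WT and averaged over both, on the right for KO against WT cells. BCL2L1 and BID, ringed in the averaged contrast, carry the 2 calls at -0.58 and 0.46, and DFNA5 lies at 1.80 in KO and -1.91 in WT cells.

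Across the 10 genes, compressed and control libraries did not overlap for 5 genes in KO cells, where this held for 27.6% of all genes, and for 6 in WT cells, where it held for 42%. For KO against WT it held for 3 genes in compressed cells, against 15.7% of all genes, and for 4 in control cells, against 31.9%. DFNA5 is in all of these counts, and its separation came with its entry through the filter, so it adds no support to them. The median log2 fold change of the 10 genes for compression was -0.07 in KO and -0.08 in WT cells, with 5 genes positive and 5 negative in each, beside medians of all genes of -0.004 and -0.02. In the averaged contrast 2 of the 10 genes were called, BCL2L1 lower and BID higher, where 5.58% of all genes were called.

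The other cell death genes were 89 listed genes in 8 groups, of which 83 were found and 64 passed the low count filter. In WT compressed against WT control cells 3 of the 64 were called higher and 1 lower, where 3.85% of all genes were called higher and 2.4% lower. In KO cells and for KO against WT, with or without compression, no listed gene was called. CYCS, which encodes the cytochrome c released through BAX and BAK pores, averaged 627 ± 85.9 CPM in WT compressed cells and 400 ± 40.2 CPM in WT control cells (SD, n = 3 each), a log2 fold change of 0.65 ± 0.14 (adjusted p 0.041, edgeR). CASP6, an executioner caspase, averaged 221 ± 29.4 CPM in WT compressed cells and 133 ± 5.3 CPM in WT control cells, a log2 fold change of 0.74 ± 0.16 (adjusted p 0.041, edgeR).

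DNM1L, whose protein divides mitochondria, rose by 0.59 ± 0.14 and FADD, the adaptor between death receptors and caspase-8, fell by 1.12 ± 0.28 on the log2 scale in WT cells (adjusted p 0.042 and 0.0435, edgeR). FADD averaged 5.96 ± 1.15 CPM in WT compressed cells and 13 ± 4.14 CPM in WT control cells. In KO cells the log2 fold changes were 0.08 ± 0.16 for CYCS, 0.41 ± 0.18 for CASP6, 0.16 ± 0.16 for DNM1L and -0.69 ± 0.30 for FADD, with no call. Each of the 4 WT calls was kept without WT control replicate 1 and lost without any of the other 5 WT libraries, with adjusted p-values up to 0.19 by edgeR. Over the whole table, 0 or 1 genes were called without any of those 5 libraries, and 0 without either KO control library, which shares in the estimate of the spread. In the contrast averaged over genotypes, CASP6 rose by 0.57 ± 0.12, and FADD and MYC, a transcription factor, fell by 0.91 ± 0.21 and 0.65 ± 0.16 (adjusted p 0.0399 to 0.0424, edgeR). These 3 calls were kept without WT control replicate 1, WT compressed replicate 2, KO compressed replicate 1 or KO compressed replicate 3, and those other than MYC without KO compressed replicate 2. They were lost without each of the remaining libraries, with adjusted p-values up to 0.182 by edgeR.

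By group, 9 of 11 genes of the apoptosome, caspases and released mitochondrial proteins had a positive log2 fold change for compression in WT cells, with a median of 0.20. The 4 tested IAP genes other than BIRC3 were all positive, with a median of 0.32 and XIAP, which binds caspases, at 0.63 ± 0.24 (adjusted p 0.102, edgeR). Without WT control replicate 1, XIAP stood at 0.94 and was called (adjusted p 0.0346, edgeR). Of 9 death receptor, ligand and adaptor genes, 7 were negative, with a median of -0.46, and TNFSF10, which encodes the ligand TRAIL, stood at 1.36 ± 0.40 (adjusted p 0.055, edgeR). Of 17 upstream regulators 15 were negative, with a median of -0.49, led by the NF-kappaB feedback genes NFKBIA at -1.43 ± 0.42 and TNFAIP3 at -1.11 ± 0.34 (adjusted p 0.0553 and 0.0609, edgeR). Both rest largely on WT control replicate 1, without which they stood at -0.57 and -0.50. The other pro-survival and pro-death BCL2 genes had medians of -0.10 and -0.15, with BCL2 at 0.50 ± 0.25 and BMF at -0.95 ± 0.46 (adjusted p 0.193 and 0.17, edgeR). Without WT control replicate 1 they stood at 0.27 and -0.01. Of 12 outer mitochondrial membrane partners 9 were positive, with a median of 0.16, and the 3 tested genes of pyroptosis and necroptosis were negative, with a median of -0.35 and RIPK3, a necroptosis kinase, at -0.66 ± 0.25 (adjusted p 0.0989, edgeR), and at -0.43 without WT compressed replicate 3. The median of all genes was -0.02.

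In KO cells, where no listed gene was called for compression, the median of all genes was -0.004. The apoptosome, caspases and released mitochondrial proteins had a median of 0.06 with 7 of 11 positive, and the IAP genes 0.10 with 4 of 4 positive. The death receptor group had a median of -0.25 with 7 of 9 negative, and the upstream regulators -0.07 with 9 of 17 negative. The other pro-survival and pro-death BCL2 genes had medians of 0.13 and 0.08. The outer mitochondrial membrane partners had a median of 0.06 with 7 of 12 positive, and the pyroptosis and necroptosis genes -0.21 with 3 of 3 negative.

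**Figure D4:**
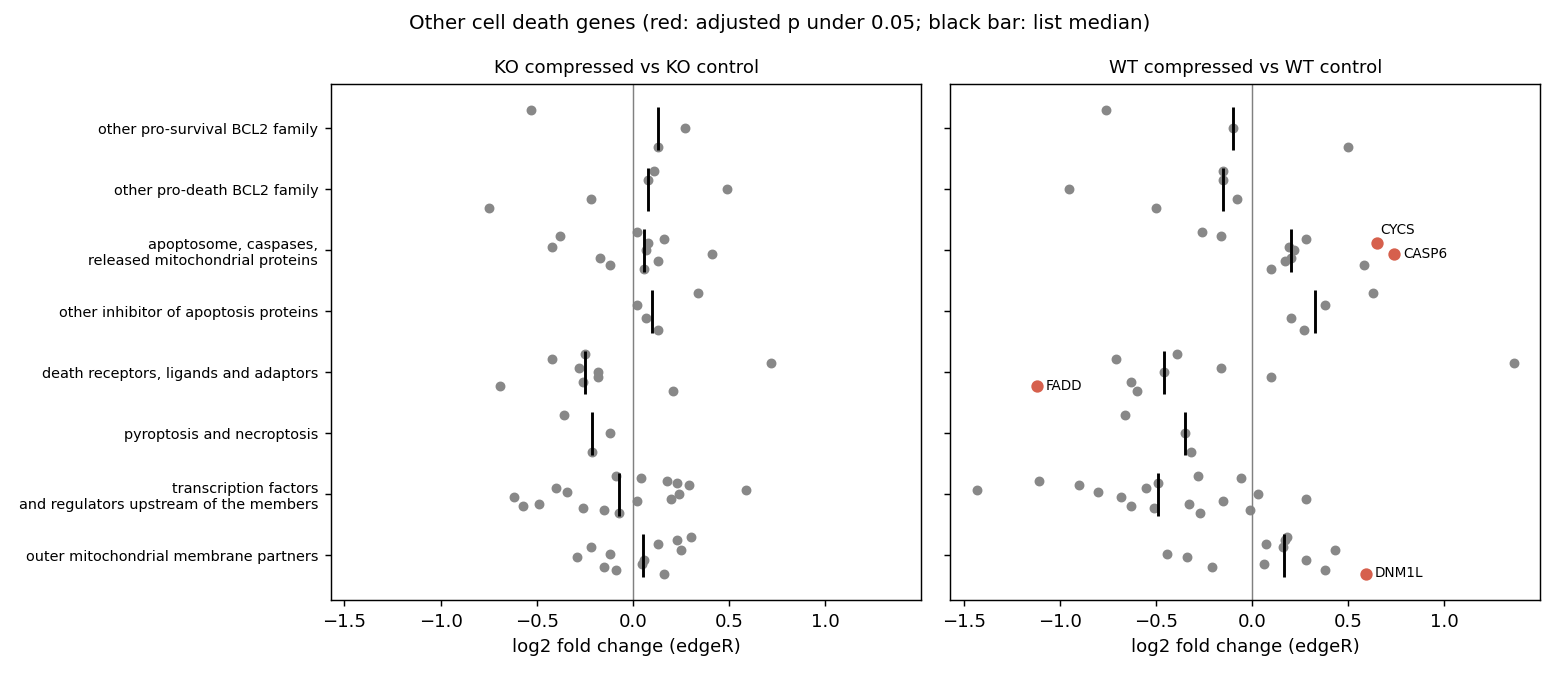
Log2 fold change for compression (edgeR) of each tested gene in 8 groups of other cell death genes, in KO cells on the left and WT cells on the right, with the group median as a black bar and called genes in red. The 4 called genes, CYCS, CASP6, DNM1L and FADD, appear in WT cells, and no gene is called in KO cells.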

How the data were processed

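Polyadenylated RNA of 11 MDCKII libraries was sequenced, per the labels' protocols. Per the submitters' processing notes, HISAT2 2.0.5, CASAVA and FastQC were used with genome build CanFam3.1. The read counter, annotation release and strand setting are not stated there or in the labels. For each gene the authors deposited unnormalized whole-number counts, and FPKM values computed from them and from a listed gene length. Groups and replicate numbers came from the sample titles. The series' design text names other time points than the titles, and the titles were followed.

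The tests used edgeR 4.0.16 in R 4.3.3. The filterByExpr function kept genes over 4 groups (13560 genes, all 10 members among them), which were scaled by TMM and fitted as 4 group means over all 11 libraries with 7 residual degrees of freedom. Tests were quasi-likelihood, two-sided and adjusted by the Benjamini-Hochberg method over all genes tested, with a threshold of 0.05. The members and gene lists were chosen with earlier results of these data known. Contrasts averaged over genotypes or treatments were added after the members' values were seen. Besides the members and LMNA, genes were named by a rule: from each pathway list up to 3 called genes with the smallest p, or up to 2 genes where none was called, and for each member the 2 genes with the most similar levels. Some genes under the rule are not named, and some cell death genes are not reported here and were left out of the lists. TNFSF10 and the overlapping genes ADAMTSL4 and ZC3H4 fall outside it and were named after their values were seen. PTPRC, CD3E, DCN and LUM come from separate lists of cell type markers, outside the rule, and were likewise named after their values were seen.

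Other settings were library size alone, RLE scaling, DESeq2 1.42.0, a filter of 1 CPM in 3 libraries, no filter, limma 3.58.1 on log2(FPKM + 0.1) or log2(FPKM + 1) where 2 or more libraries reached an FPKM of 1, the 2 groups alone, a replicate block and leaving out each library. Leaving out WT compressed replicate 3 and KO compressed replicate 2, or these and WT control replicate 1, was added after the data were seen. Replicates all differed beyond sampling noise, with a chi-square per gene of 5.86 or more. On counts simulated from these libraries with 200 of 13560 genes changed, the test for compression recovered 30.5% of 2-fold and 86% of 4-fold changes in WT cells, and 21.5% and 82% in KO cells. The test for KO against WT recovered 32.5% and 85% in compressed cells and 16.5% and 86% in control cells. False calls numbered 0 to 16 per run. Counts were drawn independently for each gene, so no simulated library stood apart, and no change below 2-fold was tried. The recovered shares may therefore differ from those in the real libraries.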

Additional observations from a re-analysis of the deposited data

Results flagged for a closer look

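DFNA5, which encodes gasdermin E, is listed because its libraries differed in opposite directions with compression in the 2 genotypes. All 3 KO compressed libraries lay above both KO control libraries, and all 3 WT compressed libraries lay below all 3 WT control libraries. The log2 fold change for compression in KO cells minus that in WT cells was 3.71 ± 0.90 (SE), and edgeR adjusted its p to 0.939 over 13560 genes. DFNA5 passed the low count filter through the KO compressed and WT control libraries alone, so it had to differ between groups. The values rest on 2 to 19 reads per library, and the gene was chosen for description with earlier results of these data known.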

How the results depend on the processing

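The number of the 10 genes called for compression in WT cells was 0, and it was 3 with DESeq2, 3 in a fit of the 2 groups alone and 1 without a filter. It was 4 without 3 libraries that stood apart (WT compressed replicate 3, KO compressed replicate 2 and WT control replicate 1). Those 4 were BAK1 and BCL2L1, lower, and BCL2L11 and BID, higher. The number was 0 to 3 when each library was left out. The highest of these, 3, came without KO compressed replicate 2, which enters only through the shared spread. DFNA5 was among the 3 genes in each setting that gave 3, and it passed the filter only through groups where it was high. For the average over genotypes the number was 2, against 4 with DESeq2 (BBC3, BCL2L1, BCL2L11 and BID) and 3 without a filter (BBC3, BCL2L1 and BID). It was 3 without 3 libraries that stood apart (BCL2L1, BCL2L11 and BID). It was 1 each with RLE scaling, library size alone and limma on log2(FPKM + 1) (BCL2L1 in each). It was 0 with limma on log2(FPKM + 0.1), with the replicate block and without 2 compressed libraries that stood apart, and 0 to 3 when each library was left out. Of all genes, 5.58% were called in that contrast, against 17% with DESeq2, 8.88% without a filter and 18.3% without 3 libraries. The share was 5.15% with RLE scaling, 4.11% with library size alone, and 2% and 0.068% with limma in the order above. It was 0% with the block and 0.089% without 2 libraries, and 0 to 2106 genes were called when each library was left out. For compression in KO cells, KO against WT in compressed and in control cells, and the interaction, the number was 0 under every alternative run. DFNA5, at 0.862 FPKM or less, was not tested with limma in any comparison. It was also not tested in the 2 groups alone for KO against WT compressed cells. The numbers in those settings are therefore of 9 genes.

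The count of all genes called for compression in WT cells was 848, against 2494 with DESeq2, 613 with library size alone, 1754 without a filter, 0 and 1 with limma on log2(FPKM + 1) and log2(FPKM + 0.1), 2069 in the 2 groups alone, 3497 without 3 libraries that stood apart and 0 to 3066 when each library was left out. Same-numbered libraries did not pair, with correlations of -0.35 to 0.2 over 15 pairs and 1 above 0.1. With the replicate block, 0 genes and 0 members were called in WT cells.

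Signs turned for the following log2 fold changes, none of them called. In KO cells BAX was -0.024 with library size alone and -0.087 to 0.25 with a library left out, PMAIP1 -0.15 to 0.25, and BIRC3 -0.58 to 0.19. For KO against WT control cells BCL2L1 was -0.0038 with the block and -0.02 without 3 libraries, and -0.12 to 0.19 with a library left out. There BAX ran from -0.24 to 0.052, BAK1 from -0.24 to 0.14, BCL2L11 from -0.083 to 0.25, PMAIP1 from -0.22 to 0.16 and BIRC3 from -0.37 to 0.41. PMAIP1 was 0.00088 with library size alone, 0.028 and 0.03 with limma and 0.16 with the block, and BIRC3 was -0.041 without 3 libraries. For KO against WT compressed cells, with a library left out, MCL1 ran from -0.26 to 0.11, BCL2L1 from -0.11 to 0.17 and BAK1 from -0.058 to 0.31. The causes were not tested. Depth limits DFNA5 most, at 2 to 19 reads per library.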

Other observations

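The gene with the most similar level over the 11 libraries was named for each member by the Pearson correlation of log2 CPM, as a description. BAK1 was closest to MRPL49 (r = 0.988) and RPS6KA4 (0.987), BID to ATG5 (0.982) and LMOD3 (0.981), and BBC3 to LMF1 (0.977) and AP5Z1 (0.964). MCL1 was closest to E2F7 (0.942), BCL2L1 to TPST2 (0.939), BAX to TNIP1 (0.927), BCL2L11 to IGJ (0.941) and PMAIP1 to ILF2 (0.925). BIRC3 and DFNA5 had the weakest nearest genes, MROH7 (0.903) and ZHX2 (0.879). The 11 points share groups and the 2 libraries that stood apart, so these values carry no test.

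Between the members themselves, BAK1 and BBC3 were the most alike (r = 0.80), and BAK1 and BID the most opposed (r = -0.79), over the same 11 libraries.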
